A study of Drosophila melanogaster with 16 samples.

Results

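Phototransduction in the fly eye is the chain of proteins that turns light caught by rhodopsin into an electrical response of the photoreceptor. Activated rhodopsin works through a G protein on a phospholipase C, and the channels Trp and Trpl then open and let cations in. The InaD scaffold holds several of these proteins together at the light-sensing membrane, the protein kinase C encoded by inaC takes part in ending the response, and arrestins bind activated rhodopsin and stop it from signalling further. These genes are strongly tied to photoreceptors, so in RNA from whole heads they stand for a part of the cells. Fewer photoreceptors and less RNA per photoreceptor cannot be told apart.

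The genes were chosen by name. Of 10 phototransduction genes looked for in the platform annotation, 6 had a named row on the array, each with 2 spots: the channels trp and trpl, the scaffold inaD, the kinase inaC, and the arrestins Arr1 and Arr2. The other 4 were not among the rows named here: ninaE, which encodes the major rhodopsin, ninaA, a cyclophilin that helps this rhodopsin fold, norpA, the phospholipase C, and ninaC, a myosin joined to a kinase domain. The 6 genes gave 12 of the 27648 rows on the array and 6 of 6793 named genes. Trp was measured on 14 of 16 arrays, trpl and Arr1 on 15, and inaD and inaC on all 16. Arr2 had a value on 1 array only. So 5 genes could be tested at each of the 4 time points.

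All flies were Oregon-R wild type virgin females, 3 to 4 days old when treatment began, kept 30 to a vial. Titles and characteristics give females, and were followed, although the growth text names male flies at one point. The treated flies (PTZ) had food with 8 mg/ml of pentylenetetrazole, a convulsant drug, for 12 hrs, 2 days or 7 days, or for 7 days with 7 further days on normal food (14th day, withdrawal). The control flies (NF) had normal food throughout, and those of the 14th day were moved to fresh normal food alongside the treated ones. Each time point had 4 arrays, each setting RNA from pooled heads of PTZ flies against that of NF flies of the same age. PTZ was labelled with Cy5 (red) on replicates 1 and 2 and with Cy3 (green) on replicates 3 and 4, so dye orientation and replicate number cannot be told apart.

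Unless given as red over green, every value below is a log2 ratio of PTZ over NF, so 0 means equal signal and a positive value means more in PTZ flies. The values used here are ratios with no absolute level, so the head origin could not be checked against marker levels. The number of rows with a value ran from 8705 to 21961 per array. The array medians as deposited ran from -0.22 to 1.57 in log2 red over green, and each array was centred on its own median. After the ratios were turned to PTZ over NF, 2 arrays whose dyes ran opposite ways were anticorrelated over all features at 12 hrs (Spearman -0.44 to -0.32). For the 2nd day these correlations were -0.39 to -0.08, for the 7th day -0.08 to 0.34, and for the 14th day -0.37 to 0.35. The array titled 7th day replicate 4 has a treatment text that describes withdrawal. The title was followed, and for the genes and differences this array moved most, values with it left out or moved to the 14th day are given below.

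None of the 5 tested phototransduction genes passed the test at any time point. The test was limma's moderated test of the mean of the arrays against 0, with Benjamini-Hochberg adjustment over all features and a threshold of an adjusted p of 0.19. It called 0 of 5 genes at 12 hrs, where 0% of 5760 features were called. On the 2nd day it called 0 of 5 genes, against 0.222% of 5415 features. On the 7th day and on the 14th day it called 0 of 5 genes and 0% of 7289 and of 6464 features. At an unadjusted p under 0.05, limma gave only Arr1 on the 7th day, 1 of 5 genes, and 0 of 5 at each other time. Over all features that level held 80 with less and 55 with more signal in PTZ flies at 12 hrs, 167 with less and 94 with more for the 2nd day, 241 with less and 371 with more for the 7th, and 112 with less and 29 with more for the 14th.

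**Figure D1:**
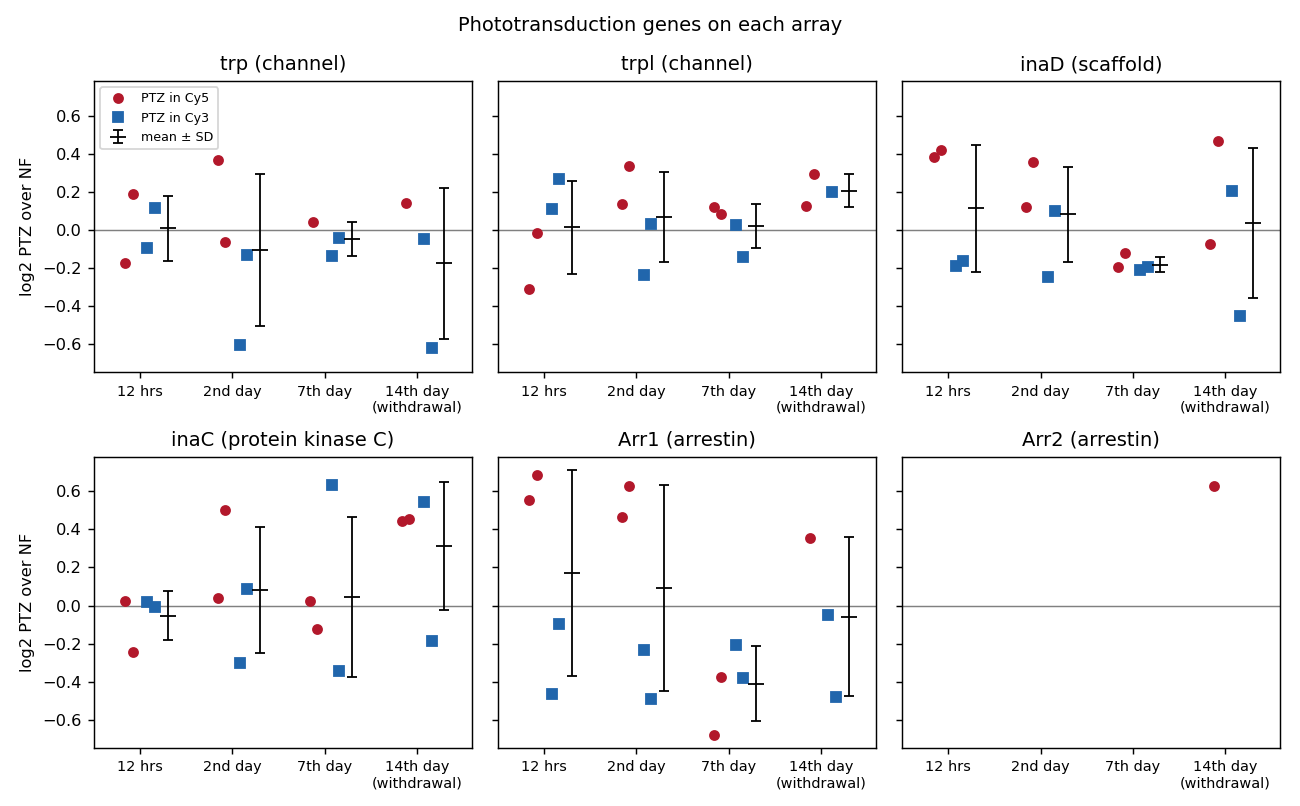
Log2 ratio of PTZ over NF (vertical axis) of the 6 phototransduction genes on each array at each time point (horizontal axis). Red circles are arrays with PTZ in Cy5, blue squares arrays with PTZ in Cy3, and black marks the mean ± SD of 3 or 4 arrays. The 4 Arr1 values and the 4 inaD values of the 7th day lie below 0, and Arr2 has 1 point.

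The channel means lay between -0.11 and 0.07 during treatment, while single arrays ran from -0.60 to 0.37. Trp, the founding member of its channel family, gave -0.17, 0.19, -0.10 and 0.11 on replicates 1 to 4 at 12 hrs. On the 2nd day it gave 0.37, -0.06, -0.60 and -0.13. Its 7th day values were 0.04, -0.14 and -0.05 on replicates 1, 3 and 4. All 3 times had values on both sides of 0, with the low point on replicate 3 of the 2nd day, and their means were 0.0088 ± 0.17, -0.11 ± 0.40 (SD, n = 4 each) and -0.05 ± 0.09 (SD, n = 3). After withdrawal trp gave 0.14, -0.05 and -0.62 on replicates 1, 3 and 4, a mean of -0.18 ± 0.40 (SD, n = 3).

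Trpl, the second light-gated channel, which leaves the light-sensing membrane during illumination, gave -0.31, -0.02, 0.11 and 0.27 at 12 hrs. Its 2nd day values were 0.14, 0.34, -0.23 and 0.03, and its 7th day values 0.12, 0.08, 0.03 and -0.14. The means of these 3 times were 0.01 ± 0.25, 0.07 ± 0.24 and 0.02 ± 0.12 (SD, n = 4 each). The last changed sign to -0.0066 when arrays were centred on their mean, and was 0.08 without replicate 4. On the 14th day trpl was above 0 on each of the 3 arrays that measured it, with 0.12, 0.29 and 0.20 on replicates 1, 2 and 3. The mean there was 0.21 ± 0.08 (SD, n = 3), with a 95% interval of -0.22 to 0.63 and a limma adjusted p of 1.00. With the values as deposited it was 1.04, and with the array of the doubtful label moved to the 14th day it was 0.12. A single sign on every array that measured a gene was seen for 1 of 5 phototransduction genes on the 14th day, against 12.8% of all features. The 2 spots of trpl differed by up to 0.64 in log2 on 1 array, with a median gap of 0.17.

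The scaffold gene inaD was above 0 on replicates 1 and 2 of 12 hrs, at 0.38 and 0.42, and below 0 on replicates 3 and 4, at -0.19 and -0.16. On the 2nd day it gave 0.12, 0.36, -0.25 and 0.10. The arrays with PTZ in Cy5 were the higher ones at both times. On the 7th day its 4 arrays were close together and below 0, at -0.20, -0.12, -0.21 and -0.20. The 7th day mean was -0.18 ± 0.04 (SD, n = 4), a ratio of 0.88, with a 95% interval of -0.44 to 0.08 in log2 and a limma adjusted p of 0.65. The closeness is of averages over spots: on replicate 4 the 2 inaD spots gave 0.24 and -0.64, a gap of 0.88, whereas the median gap of inaD over 16 arrays was 0.08 and that of all spot pairs 0.15. On the 14th day inaD spread again, with -0.07, 0.47, 0.20 and -0.45, a mean of 0.04 ± 0.39 (SD, n = 4), which was -0.01 with the array of the doubtful label added to that day.

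The kinase gene inaC stayed near 0 on 3 of 4 arrays at 12 hrs, with 0.02, -0.24, 0.02 and -0.0095. Its 2nd day values were 0.04, 0.50, -0.30 and 0.09, and those of the 7th day were 0.02, -0.13, 0.63 and -0.35. Means were -0.05 ± 0.13, 0.08 ± 0.33 and 0.05 ± 0.42 at these 3 times (SD, n = 4 each), and the last was 0.18 without replicate 4, the array of the doubtful label. On the 14th day inaC was higher in PTZ flies on 3 arrays, with 0.44, 0.46 and 0.54 on replicates 1, 2 and 3, and lower on replicate 4, at -0.19. The 14th day mean of 0.31 ± 0.34 (SD, n = 4) had a 95% interval of -0.08 to 0.71 and a limma adjusted p of 1.00. It was 0.48 without replicate 4, 0.56 with the values as deposited and 0.18 with the array of the doubtful label moved to the 14th day.

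The arrestin gene Arr1 had the furthest mean from 0 of the 5 genes, on the 7th day. At 12 hrs it gave 0.55, 0.68, -0.46 and -0.09 on replicates 1 to 4, and on the 2nd day 0.47, 0.63, -0.24 and -0.49. Replicates 1 and 2 were above 0 and replicates 3 and 4 below 0 at both times, without overlap. The means were 0.17 ± 0.54 and 0.09 ± 0.54 (SD, n = 4 each). On the 7th day Arr1 was below 0 on all 4 arrays, at -0.68, -0.38, -0.21 and -0.38. Its mean was -0.41 ± 0.20 (SD, n = 4), a PTZ over NF ratio of 0.75 with a 95% interval of 0.61 to 0.92. The limma adjusted p was 0.59, so the decrease did not pass. After withdrawal it gave 0.36, -0.05 and -0.48 on replicates 1, 3 and 4, a mean of -0.06 ± 0.42 (SD, n = 3).

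Lower values of Arr1 on the 7th day held in both dye orientations, with means of -0.53 where PTZ was red and -0.29 where it was green. With 1 array left out in turn the mean ran from -0.48 to -0.32, and without replicate 4 it was -0.42 with a limma adjusted p of 0.30. The sign on single arrays depended on centring: as deposited, the turned 7th day values of Arr1 ran from -1.13 to 1.00, with a mean of -0.28, and those of inaD from -1.05 to 1.25, with a mean of -0.06, while the 7th day median of all features was 0.09. Centring moved the 14th day more, where the median of all features was 0.25 as deposited. Read against the background, 1 of 5 genes lower at an unadjusted p under 0.05 on the 7th day stands beside 3.31% of features. The count of 2 of 5 with a single sign on every array that measured them, Arr1 and inaD, stands beside 21.2% of features. At 12 hrs and on the 2nd day 0 of 5 genes had a single sign on every array, against 13.0% and 13.8% of features.

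Arr2, which encodes the more abundant arrestin of the photoreceptors, was read only on replicate 1 of the 14th day, at 0.63 in log2 PTZ over NF. That array had the most rows with a value. Arr1 on the same array was 0.36, and Arr2 has no replicate and no test.

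Arr1 and inaD differed between dye orientations at 12 hrs, as did many other features, and Arr1 did so on the 2nd day as well. Before turning, the centred red over green ratio of Arr1 was above 0 on all 8 arrays of 12 hrs and the 2nd day, between 0.09 and 0.68, whichever dye PTZ carried. Red over green of inaD was above 0 on 7 of these 8 arrays, with the lowest at -0.10. Trp was above 0 on 5, inaC on 5 and trpl on 3 of the 8. Trpl was below 0 on all 4 arrays of 12 hrs, between -0.31 and -0.02, and above 0 on 3 of 4 on the 2nd day. The coefficient of a dye term in the limma fit, tested after these values had been seen, gave Arr1 a gap between orientations of 0.90 at 12 hrs (adjusted p = 0.11) and 0.91 on the 2nd day (adjusted p = 0.18). It gave inaD a gap of 0.58 at 12 hrs (adjusted p = 0.11) and of 0.31 on the 2nd day (adjusted p = 0.40), which did not pass. For trpl the gap was -0.35 at 12 hrs (adjusted p = 0.23) and 0.34 on the 2nd day (adjusted p = 0.32), and neither passed. With the same threshold of 0.19 the term called 2 of 5 genes at 12 hrs, against 27.8% of features, and 1 of 5 on the 2nd day, against 3.29%.

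The arrays with PTZ in Cy5 on the 7th day had Arr1 at -0.68 and -0.38 in red over green, and those with PTZ in Cy3 at 0.21 and 0.38. The dye term called 0 of 5 genes on the 7th day and 0 of 5 on the 14th day with limma, where it called 0.233% and 0.0619% of features. At an unadjusted p under 0.05 it also gave 0 of 5 at both. Over these last 2 time points, red over green of trp was above 0 on all 6 arrays that measured it, between 0.04 and 0.62. It was above 0 for trpl on 5 of 7 arrays, inaD on 4 of 8, inaC on 5 of 8 and Arr1 on 5 of 7. PTZ over NF was higher with PTZ in Cy5 for 3 of 5 genes on the 7th day. On the 14th day this held for 5 of 5, with gaps from 0.01 for trpl to 0.62 for Arr1. With the dye term in the fit, the PTZ over NF mean of Arr1 was the same as without it at the first 3 time points, 0.17, 0.09 and -0.41, since the orientations were balanced. On the 14th day Arr1 and trp lacked replicate 2, so the orientations were not balanced. There the Arr1 mean was 0.05 with the term and -0.06 without it, and that of trp -0.10 and -0.18.

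**Figure D2:**
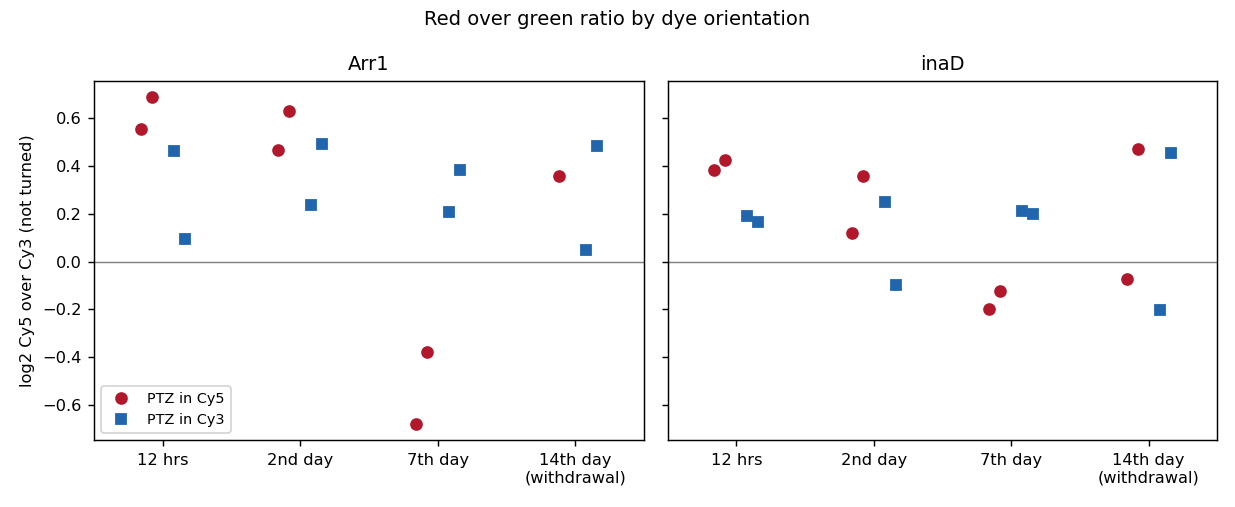
Log2 of Cy5 over Cy3 (vertical axis) of Arr1 and inaD on each array by time point (horizontal axis), centred on the array median and not turned. Red circles are arrays with PTZ in Cy5 and blue squares arrays with PTZ in Cy3; at 12 hrs and on the 2nd day all 8 Arr1 points lie above 0 in both orientations, and on the 7th day the orientations lie on opposite sides of 0.

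The differences between time points asked whether the response changed with time and after withdrawal. The limma fit over 8 arrays called 0 of 5 genes for the 14th day minus the 7th day, against 0% of 5881 features, and 0 of 5 also at an unadjusted p under 0.05, where 266 features were lower and 184 higher. Arr1 averaged -0.06 on the 14th day and -0.41 on the 7th day, a difference of 0.35 with a 95% interval of -0.17 to 0.88 (limma adjusted p = 0.69). Its arrays overlapped between the time points. The difference was 0.15 without 14th day replicate 1 and 0.56 without 14th day replicate 4.

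The inaC difference was 0.27, from means of 0.31 on the 14th day and 0.05 on the 7th day, with an interval of -0.28 to 0.82. With the array of the doubtful label left out it was 0.14, and with that array moved to the 14th day 0.0046. That of inaD was 0.22, from means of 0.04 and -0.18, with an interval of -0.24 to 0.68. Trpl had a difference of 0.18 with an interval of -0.20 to 0.57. Its 3 arrays of the 14th day lay above its 4 of the 7th day by a narrow margin, 0.1245 against 0.1185. The share of all features without overlap was not counted. With the array of the doubtful label moved to the 14th day the trpl difference was 0.04, and with the values as deposited 0.89. Trp ran the other way, at -0.13 with an interval of -0.69 to 0.43, but stood at 0.18 with the values as deposited and at 0.09 without 14th day replicate 4. So 4 of 5 genes had a higher ratio on the 14th day than on the 7th, beside 2932 of 5881 features. Over the 5 genes the median difference was 0.22, over all features -0.0012, and no single one of the 5 passed. The genes share the same arrays, so the count is not one of separate agreements. The median difference was 0.11 with the array of the doubtful label moved, over the 4 genes then tested, and 0.14 with it left out. It was 0.34 with the values as deposited and 0.38 without 14th day replicate 4.

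Between the 7th day and the 2nd day, limma called 0 of 5 genes and 0.0238% of 4196 features. Arr1 averaged -0.41 on the 7th day and 0.09 on the 2nd day, a difference of -0.50 with a 95% interval of -1.08 to 0.07 (limma adjusted p = 0.735). The inaD difference was -0.26 with an interval of -0.58 to 0.05 and the same adjusted p. Trpl, inaC and trp differed by -0.05, -0.03 and 0.06. Between the 2nd day and 12 hrs limma called 0 of 5 genes and 0.0225% of 4438 features, with differences from -0.12 for trp to 0.13 for inaC. None of the 5 genes passed an unadjusted p under 0.05 in either of these comparisons.

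**Figure D3:**
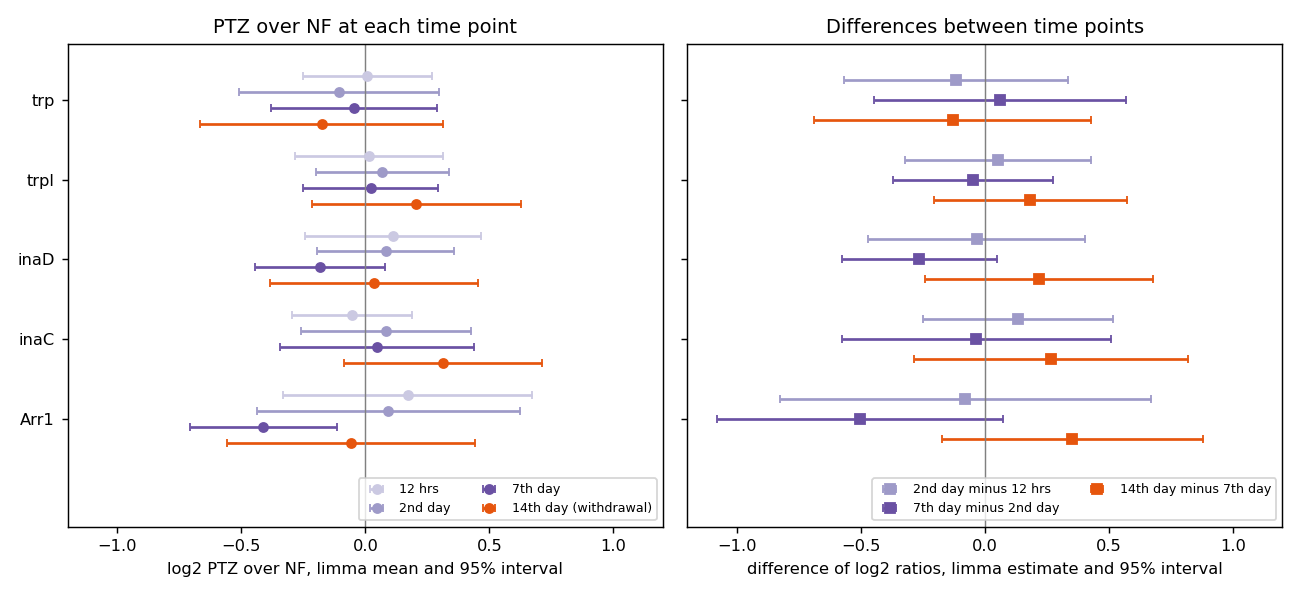
Left, the limma mean and 95% interval of log2 PTZ over NF (horizontal axis) of the 5 tested genes at each time point. Right, the limma estimate and 95% interval of the differences between time points; the interval of Arr1 on the 7th day, -0.71 to -0.12, is the only one on either side that leaves out 0.

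The intervals show what 3 or 4 arrays could resolve. Over the 5 genes and 4 time points they reached no lower than -0.71 and no higher than 0.71 in log2. Pairs of genes were also compared by sign on each array. Trpl and inaC had the same sign on 12 of 15 arrays and inaD and Arr1 on 12 of 15, whereas trpl and Arr1 shared it on 5 of 14. Arrays of the same dye orientation were correlated over all features at 12 hrs (Spearman 0.37 to 0.58) and on the 2nd day (0.32 to 0.43). For the 7th day these correlations were -0.085 to 0.43, and for the 14th day -0.06 to -0.04. The genes share their arrays, so the sign counts are a description only.

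Genes whose ratios followed the mean of inaD and inaC, the 2 phototransduction genes read on every array, were looked for among 431 other named genes read on all 16. Mpcp2, a mitochondrial phosphate carrier, had the highest Pearson correlation over the 16 arrays, 0.88. It was followed by ATPsynbeta, the beta subunit of the mitochondrial ATP synthase, at 0.86, Oda, the ornithine decarboxylase antizyme, at 0.85, CG8229 at 0.81 and CG6696 at 0.78. All 16 points share their arrays and dyes with the genes they are set against.

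The wider eye set gave no called gene either. Of 78 other genes with roles in the eye, 38 had a named row. Limma tested 20 of them at 12 hrs, 24 on the 2nd day, 29 on the 7th day and 30 on the 14th day, and called 0 at each time. At an unadjusted p under 0.05 it gave 1, Pu on the 2nd day. Their median log2 ratio was -0.01, 0.01, 0.05 and 0.07 in that order, beside 0.01, 0.08, -0.05 and 0.04 for the 5 phototransduction genes and values within 0.01 of 0 for all features.

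Among genes that work beside the phototransduction proteins, the smallest p-values at 12 hrs belonged to santa-maria, a receptor for the carotenoid taken up for the chromophore (-0.24 ± 0.21, SD, n = 3), and rdgB, a phosphatidylinositol transfer protein (0.20 ± 0.22, SD, n = 3). Xport-A, a chaperone of Trp, was at -0.11 ± 0.06 and rtp, a rhabdomere protein that binds NinaC, at 0.14 ± 0.25 (SD, n = 4 each). On the 2nd day they belonged to Pu, which makes the precursor of the red eye pigments (-0.26 ± 0.11, SD, n = 4, limma adjusted p = 0.72), and rdgA, a diacylglycerol kinase (0.15 ± 0.09, SD, n = 4). Rtp on that day was at 0.14 ± 0.09 (SD, n = 4) and the opsin gene Rh7 at 0.24 ± 0.24 (SD, n = 3).

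Of the 7th day set, Hdc, which makes the photoreceptor transmitter histamine, was at -0.22 ± 0.24 and Pis, a phosphatidylinositol synthase, at 0.18 ± 0.23. The eye determination gene eya was at 0.20 ± 0.24 (SD, n = 4 for these 3) and cn, an enzyme of the brown eye pigment, at 0.25 ± 0.24 (SD, n = 3). On the 14th day, t, a hydrolase that frees histamine for reuse, was above 0 on 4 of 4 arrays at 0.38 ± 0.28. In contrast bw, a transporter of eye pigment precursors, was below 0 on 3 of 3 at -0.42 ± 0.27. A single sign on every array held for 12.8% of all features that day, and for further eye genes too. Pdh, a dehydrogenase of the chromophore cycle, was at 0.38 ± 0.38 and rtp at 0.33 ± 0.38 (SD, n = 4 each).

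For the 14th day minus the 7th day, the widest of these gaps was that of Pdh with the arrays as titled. It averaged 0.38 on the 14th day and -0.21 on the 7th day, a difference of 0.59 with an interval of 0.04 to 1.13 (limma adjusted p = 0.65). Hdc averaged 0.15 on the 14th day and -0.22 on the 7th day, Pu 0.21 and -0.23, and santa-maria -0.34 and 0.07, in the same order of days, each with an interval that held 0. With the array of the doubtful label moved to the 14th day, the Pdh difference was 0.36 with an interval of -0.30 to 1.01, and that of santa-maria, -0.40 as titled, was -0.60 with an interval of -1.04 to -0.17 (limma adjusted p = 0.39).

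Markers of other cells in the head were set beside the phototransduction genes. At 12 hrs limma called 0 of 7 neuron, 0 of 5 glia, 0 of 8 fat body, 0 of 5 muscle and 0 of 1 ovary and germline markers tested, and 1 fat body marker was under an unadjusted p of 0.05. For the 2nd day it called 2 of 10 fat body markers, beside 0.222% of features: fit at -1.25 ± 0.15 (adjusted p = 0.035) and AkhR, which encodes a receptor for adipokinetic hormone, at -0.54 ± 0.08 (adjusted p = 0.14; SD, n = 4 each), both named after their values were seen. It called 0 of 6 neuron, 0 of 4 glia, 0 of 5 muscle and 0 of 2 ovary and germline markers that day, with 1 glia marker under an unadjusted p of 0.05. The fat body median was -0.15 at both times. Of the 10 fat body markers tested for the 2nd day, 6 were below 0 and 4 above 0. Before adjustment, 3 lower ones and 1 higher one were under a limma p of 0.05.

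On the 7th day limma called 0 of 7 neuron, 0 of 4 glia, 0 of 8 fat body, 0 of 6 muscle and 0 of 4 ovary and germline markers tested, with median log2 ratios of 0.08, -0.06, -0.09, 0.08 and -0.06. On the 14th day it called 0 of 7, 0 of 3, 0 of 9, 0 of 5 and 0 of 3, with medians of 0.10, -0.06, 0.04, -0.02 and -0.16. Before adjustment, 1 marker was under a limma p of 0.05 on the 7th day, BigH1 of the germline list (-0.78 ± 0.90, SD, n = 3), and on the 14th day there were 2, Yp3, a yolk protein gene (0.44 ± 0.08, SD, n = 3), and fit (0.41 ± 0.37, SD, n = 4), both of the fat body list. Over all features that level held 241 lower and 371 higher of 7289 on the 7th day, and 112 lower and 29 higher of 6464 on the 14th. Per array, the fat body median lay between -0.29 and 0.18 on the 7th day, where that of the phototransduction genes lay between -0.20 and 0.02. Its 14th day range was -0.06 to 0.40, beside -0.47 to 0.46 for the phototransduction genes. Those 14th day medians rest on 7 to 13 fat body markers and 3 to 6 phototransduction genes an array. For the 14th day minus the 7th day limma called 0 markers, and 6 of 7 fat body markers were above 0, with a median of 0.13, beside 2932 of 5881 features above 0. The median difference was -0.31 over 3 ovary and germline, -0.07 over 6 neuron, 0.13 over 2 glia and 0.10 over 5 muscle markers. Before adjustment 2 of these markers were under a limma p of 0.05, beside 266 lower and 184 higher of 5881 features. Apolpp, the precursor of the fat body's lipid carrier proteins, averaged 0.34 on the 14th day and -0.28 on the 7th day. Its difference was 0.61 (95% interval 0.03 to 1.19). Orb of the germline list averaged -0.36 and 0.18 on the same days, a difference of -0.54 (-0.99 to -0.08). The part of these cells in the ratios and differences of the phototransduction genes was not tested.

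**Figure D4:**
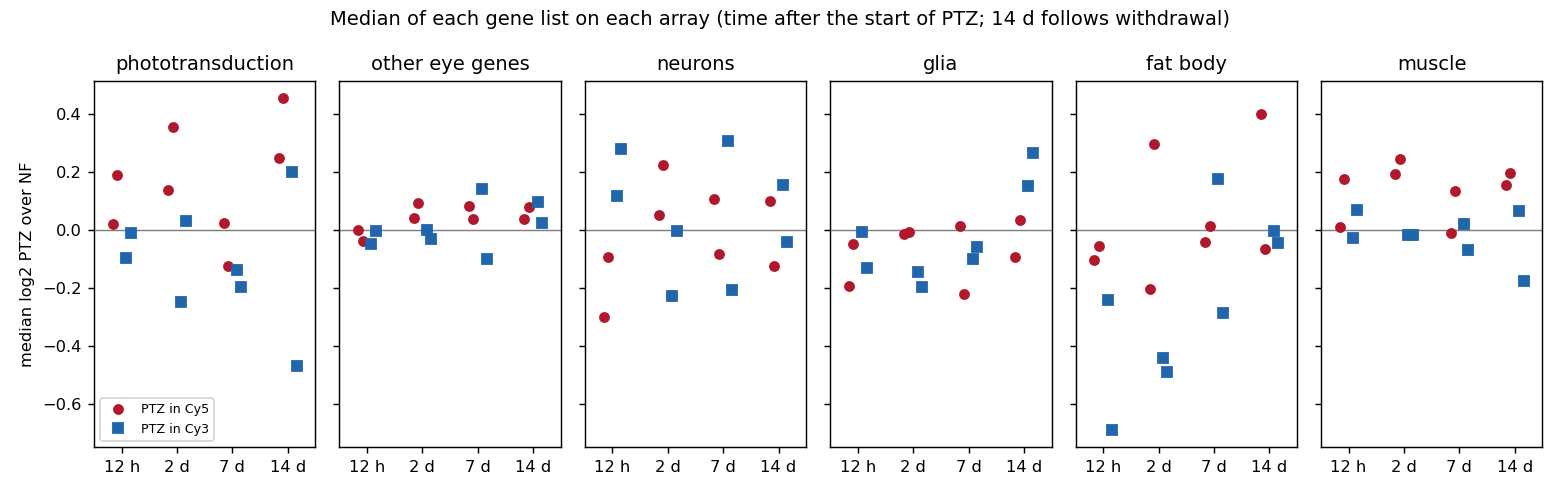
Median log2 ratio of PTZ over NF (vertical axis) of the phototransduction genes, the other eye genes and the markers of 4 other cell types on each array by time point (horizontal axis). Red circles are arrays with PTZ in Cy5 and blue squares arrays with PTZ in Cy3. The phototransduction medians of the 14th day spread from -0.47 to 0.46, and those of the other eye genes from 0.03 to 0.10. The former rest on 3 to 6 genes an array, not the same ones on each, and the latter on 25 to 36.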

How the data were processed

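The deposited values were log2 ratios of Cy5 over Cy3 from spotted cDNA arrays. Per the labels, the authors quantified scans in GenePix Pro 6.0, normalised ratios in Acuity 4.0 and dropped weak, saturated or uneven spots. A value of 16.61, the ceiling, was set missing (53 values). Each array was centred on its median over rows, dye swap arrays were multiplied by -1, and the rows of a gene were averaged. Of 27648 rows, 15116 had 1 gene name, 102 several and 12430 none. Unnamed neighbouring spots were averaged in pairs, which gave 13059 features. Old symbols were updated by gene ID, except in 222 rows.

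limma 3.58.1 in R 4.3.3 tested features with at least 3 of 4 arrays (both time points for a difference). An adjusted p under 0.19, the loosest false discovery rate of the study's methods, passed. limma stood in for the one-class permutation method named there. Python 3.11.15 with pandas 2.3.3 and matplotlib 3.10.9 made the values and figures. The replicates were separate pools of heads.

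The genes and lists were chosen with earlier results of these data known. Named beside the 10 genes were, of the other eye genes, the 4 with the smallest p per time point and for the 14th day minus the 7th, 5 genes by correlation, and, of the markers of other cells, at most 2 per list and day with the smallest p. Alternatives were other centring, a dye term, an adjusted p under 0.05, measured on 2 or 4 arrays, medians over spots, a trended robust variance, 1 fit over 16 arrays with and without a replicate block, the array of the doubtful label moved, and each array left out (genes with 3 of the original 4 arrays stayed in). The dye coefficient, the count of genes with a single sign and the moved or left-out array for the named eye genes' differences were added after their values had been seen. Spot depth was not used here, and the number of arrays limits precision.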

Additional observations from a re-analysis of the deposited data

Results flagged for a closer look

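Of 27 groups of 4 arrays examined, chance alone would single out about 1 in 20, and 3 had 1 array far from the rest. The groups share arrays, and those of other eye genes were picked for small p-values, so that rate is a rough guide. For inaD on the 7th day, replicate 2 was at -0.124 in log2 PTZ over NF while the other 3 arrays lay between -0.21 and -0.20. The whole range of that group is narrow, and its replicate 4 averages 2 spots at 0.24 and -0.64. For inaC at 12 hrs, replicate 2 was at -0.243, whereas the other 3 lay between -0.0095 and 0.02. For inaC on the 14th day, replicate 4 was at -0.186, while the other 3 lay between 0.44 and 0.54. On that array trp, inaD and Arr1 were also the lowest of their group, at -0.62, -0.45 and -0.48.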

How the results depend on the processing

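The count of phototransduction genes that passed was 0 of those tested at all 4 time points and for all 3 differences under every alternative run. All 5 were tested, except that a value on all 4 arrays left 4 on the 7th day and for the 7th minus the 2nd day, and 2, inaD and inaC, on the 14th day and for the 14th minus the 7th day, and that 4, without trp, were tested on the 7th day and in its differences with the doubtful array moved. The median of the 5 means on the 7th day was -0.0462, and leaving out 1 array gave -0.1492 to -0.0462, the lowest without replicate 3. Over all alternatives the median ran from -0.0258 to 0.0435 at 12 hrs, from -0.0583 (without replicate 2) to 0.19 (without replicate 3) on the 2nd day, for the 7th day between -0.1492 and -0.0085, and from -0.0578 (without replicate 2) to 0.28 (as deposited) on the 14th day, where it was 0.20 without replicate 4. The median difference ran from 0.11 (doubtful array moved) to 0.38 (without 14th day replicate 4) for the 14th minus the 7th day, from -0.23 (without 7th day replicate 3) to 0.04 (without 2nd day replicate 2) for the 7th minus the 2nd day, and from -0.13 to 0.08 for the 2nd day minus 12 hrs. The mean of Arr1 on the 7th day ran from -0.48 to -0.28 over all alternatives, with a limma adjusted p of 0.30 to 1.00. Leaving out 1 array turned the sign of 4 of 5 means at 12 hrs, 5 of 5 on the 2nd day, 2 of 5 on the 7th day (inaC, trpl) and 3 of 5 on the 14th day (trp, inaD, Arr1). Other alternatives turned trpl on the 7th day, inaD and Arr1 on the 14th day, and trp for the 14th minus the 7th day. No other mean, and no other 14th minus 7th day difference, changed sign. Replicate numbers were not used as pairs, since not every same-numbered pair had deviations correlated above 0.1: 2 of 4 did for the 14th and 7th day, 0 of 4 for the 7th and 2nd day, and 3 of 4 for the 2nd day and 12 hrs. The correlations ran from -0.11 to 0.31 for the 14th and 7th day, -0.08 to 0.04 for the 7th and 2nd day, and 0.08 to 0.20 for the 2nd day and 12 hrs. With a replicate block over 8 arrays limma called 0 of 5 genes and 0 features in each difference, and with the block over 16 arrays 0 of 5 genes at every time. Values rest on 3 or 4 arrays a group.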
